A study of Mus musculus with 16 samples.

Results

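Genes of the elastic fibre were followed in whole mouse skin: Eln, Fbn1, Fbn2, Mfap2, Mfap4, Mfap5, Lox, Loxl1, Fbln5 and Emilin1. These 10 were chosen by name, as elastin, microfibril, assembly and cross-linking genes, by a rule that used no measured value. Earlier results of these data were known when they were chosen. Each was found once among the 23930 transcript targets counted, and all 10 had enough counts to enter the test of 13633 genes. The skin came from 12-week-old mice lacking MCPIP1, the RNase encoded by Zc3h12a that degrades mRNAs of inflammatory mediators, in 1 cell type, in both or in neither, with 4 mice in each of 4 groups. All mice, controls included, carried the floxed allele as Zc3h12a(loxP/loxP). Controls had no Cre, EKO mice had Krt14Cre(Tg/Wt), whose promoter is active in basal keratinocytes, MKO mice had LysMCre(Tg/Wt), whose promoter is active in myeloid cells, and EMdKO mice had both transgenes. The labels give neither sex, litter nor batch. Nothing in them says more of the mice than a number within each group. The p-values set differences between groups against the spread of these 16 samples within their groups.

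Elastic fibres let skin recoil after stretch. Fibrillins and the glycoproteins bound to them form microfibrils, onto which fibulin-5 and related proteins guide tropoelastin, the soluble product of Eln, before lysyl oxidases cross-link it into an insoluble core. Dermal fibroblasts are the main source of these proteins in skin, and smooth muscle of vessels and hair muscles also makes them.

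The upstream sequence of 4 of the 10 members was in the RefSeq promoter table of build GRCm38.p6 (Fbn1, Mfap2, Fbln5 and Emilin1). The table gives 250 bases before a start, and sequence is printed for 2 of these 4 genes, because Fbn1 had the lowest and Fbln5 the highest difference between mice with and without Krt14Cre among them. The Fbn1 entry is chr2:125506439-125506688. Its last 47 bases lie inside the annotated gene and are not printed, which leaves the 203 bases of chr2:125506486-125506688. The Fbln5 stretch is chr12:101819120-101819369, directly before the annotated gene. Both are on the minus strand and printed 5′ to 3′ along the gene.
Fbn1: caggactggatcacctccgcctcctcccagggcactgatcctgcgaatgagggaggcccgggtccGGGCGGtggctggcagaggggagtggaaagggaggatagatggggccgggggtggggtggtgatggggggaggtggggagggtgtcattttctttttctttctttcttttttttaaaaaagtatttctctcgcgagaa
Fbln5: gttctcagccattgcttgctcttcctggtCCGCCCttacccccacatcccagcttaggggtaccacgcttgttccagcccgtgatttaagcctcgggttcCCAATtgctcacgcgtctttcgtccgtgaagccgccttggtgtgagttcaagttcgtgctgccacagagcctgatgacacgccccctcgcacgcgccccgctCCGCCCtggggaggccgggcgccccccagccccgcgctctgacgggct
Capitals mark matches to the GC box (GGGCGG or CCGCCC), the TATA box (TATAAA or TTTATA) and the CCAAT box (CCAAT or ATTGG), so that both strands were searched. The Fbn1 entry held 1 GC box and neither of the other motifs. The Fbln5 stretch held 2 GC boxes, 1 CCAAT box and 0 TATA boxes. A further Fbln5 entry, chr12:101818485-101818734, lies inside the annotated gene and held 0 matches. Bases after this entry and after the Fbn1 entry were found in a GENCODE transcript of their gene. Those after the printed Fbln5 stretch were not. Among 32851 stretches of 250 bases, 32.7% held a GC box, 12.4% a TATA box and 33.8% a CCAAT box. GC content was 59.2% in the 250 bases of the Fbn1 entry and 65.2% in the Fbln5 stretch.

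Libraries held 6962474 to 12086327 counts. Levels are given as CPM, the count scaled to library size after TMM normalisation, which also allows for differences in library makeup. Each target was read through its own amplicon, so levels are compared between mice and not between genes. Zc3h12a had 19.4 to 30.3 CPM in control, 17.1 to 35 in MKO, 7.07 to 11.7 in EKO and 4.41 to 5.71 in EMdKO skin. Skin markers were present in all libraries, and so was skeletal muscle RNA, with 4020 to 18520 CPM of Acta1. Among macrophage markers C1qa had at most 1 count in any library, while Mrc1 had 70.5 to 149 CPM. The cartilage markers Col2a1 and Matn1 had at most 3 and 2 counts. A further cartilage marker, Acan, ran from 0 to 23.4 CPM, with a median of 0.502 CPM over the 16 mice. Acan had log2 fold changes of -3.66 in EMdKO against control, -4.57 in EMdKO against EKO and -3.00 for the mean LysM-Cre effect, each with an unadjusted p under 0.05 and none called by edgeR. The part of cartilage in the differences below was not tested.

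None of the elastic fibre genes passed the test in 9 comparisons (edgeR quasi-likelihood test with Benjamini-Hochberg, BH, adjustment over all 13633 genes, threshold 0.05). These were the 3 knockouts against control, the 3 pairs of knockouts, the mean effect of each Cre over both states of the other, and the interaction of both deletions. Mfap5, a microfibril glycoprotein gene, came nearest, at lower levels in mice with Krt14Cre. Its BH adjusted p was 0.0519 in edgeR. Few genes of any kind passed against control, with 0% called for EKO, 0.0293% for MKO and 0.0293% for EMdKO. These counts over all genes moved with 1 library and with the tool. In EKO edgeR called 0 genes, or 127 without EKO mouse 1, and DESeq2 called 54. In EMdKO edgeR called 4, or 40 without EKO mouse 1, and DESeq2 called 71. In MKO edgeR called 4, or 1 to 5 with a library left out, and DESeq2 called 111.

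At an unadjusted p under 0.05, Loxl1 alone among the members stood lower in EKO, where 3.62% of all genes did. Mfap4 alone stood lower in MKO, where 6.41% did. Fbn1, Mfap5 and Loxl1, 3 of 10 members, stood lower in EMdKO, where 4.65% did. No member stood higher at that level, and DESeq2 and limma-voom called 0 members in all 3 comparisons. The 3 comparisons share the same 4 controls.

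All 10 members had negative log2 fold changes in EMdKO against control, with a median of -0.44 beside -0.02 over all genes tested. The median was -0.26 in EKO (6 of 10 negative, all genes -0.03) and -0.11 in MKO (7 of 10 negative, all genes 0.00). limma-voom gave -0.73 in EMdKO (10 of 10 negative) and -0.24 in MKO (8 of 10). Control mouse 3 weighed on all 3 values. Without it the median was -0.14 in EMdKO (8 of 10 negative), 0.09 in EKO (5 of 10) and 0.16 in MKO (3 of 10). Its skin had the highest level of Eln, Mfap4, Loxl1, Fbln5 and Emilin1 among the 16 mice. MKO mouse 3 had the highest level of Fbn1, Fbn2 and Mfap5, and without it 10 of 10 members were negative in MKO (median -0.19). Of the 10 lowest values, 6 belonged to EMdKO mice. No EKO mouse held the highest or the lowest value of any member.

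**Figure D1:**
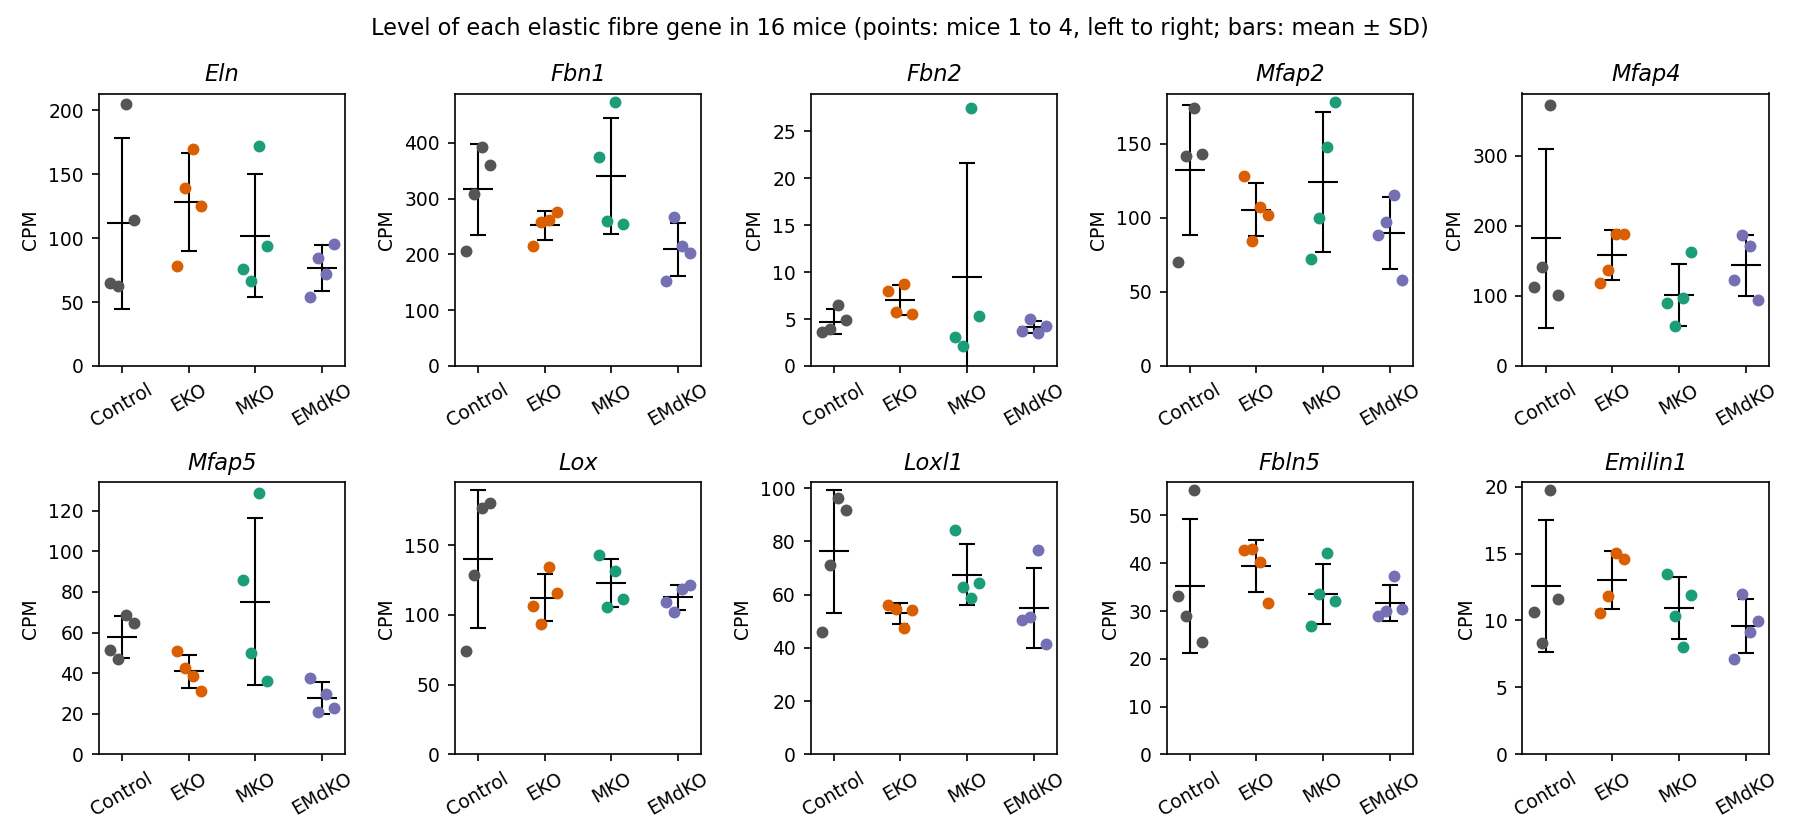
CPM of each elastic fibre gene (vertical axis from 0) in the 4 groups; points are mice 1 to 4 from left to right, black bars the mean ± SD (n = 4), and the lower bar of Fbn2 in MKO is cut at 0. Mfap5 lies between 20.96 and 37.9 CPM in EMdKO, under every control (47.2 to 68.7 CPM), and single mice stand high for Mfap4 in control (373 CPM) and Fbn2 in MKO (27.5 CPM).

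Elastin forms the core of the fibre. Eln had 64.8, 62.1, 205.1 and 114 CPM in the controls, mice 1 to 4 in turn. EKO skin had 78.3, 139, 169.9 and 125 CPM. MKO skin had 76.2, 66.2, 172 and 93.6 CPM, and EMdKO skin 53.7, 84.3, 72.1 and 95.8 CPM. The groups overlapped, and EMdKO was the only one with no mouse above 95.8 CPM. The log2 fold change against control was 0.20 ± 0.38 (SE) in EKO, -0.13 ± 0.38 in MKO and -0.55 ± 0.38 in EMdKO (edgeR, BH adjusted p = 0.918, 0.943 and 0.788). Without control mouse 3 the EMdKO difference was -0.07 ± 0.34. EMdKO against EKO gave -0.75 ± 0.38 (edgeR, BH adjusted p = 0.757). Eln lies on chromosome 5, 134702595 to 134747368, minus strand, in GRCm38.p6, the build of all positions given here. The count files name no build.

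Fibrillin-1 is the main microfibril protein of adult tissue. Fbn1 had 206.5, 308, 392 and 360.0 CPM in control and 374, 259.8, 473 and 255 CPM in MKO skin. EKO skin had 215, 259, 261 and 275 CPM, and EMdKO skin 153, 268, 214 and 202 CPM. Of the 8 mice without Krt14Cre, 5 lay above every carrier, although the ranges overlapped. The mean Krt14-Cre effect was -0.52 ± 0.17 on the log2 scale (edgeR, BH adjusted p = 0.217), and limma-voom called it at -0.61 ± 0.16 (BH adjusted p = 0.0438). Fbn1 differed by -0.60 ± 0.23 in EMdKO against control and by -0.70 ± 0.24 in EMdKO against MKO (edgeR, BH adjusted p = 0.504 and 0.371). Fbn1 lies on chromosome 2, 125300594 to 125506485, minus strand.

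Fibrillin-2 is best known from embryonic tissue. Fbn2 was scarce, with 17 to 77 counts in all libraries but 1. It had 3.59 to 6.54 CPM in control, 5.52 to 8.74 in EKO and 3.52 to 4.97 in EMdKO skin. The MKO mice had 3.14, 2.15, 27.5 and 5.27 CPM, so that mouse 3, with 231 counts, set the group mean of 9.52 ± 12.1 CPM (SD, n = 4). The MKO difference was 1.01 ± 0.57 with this mouse and -0.43 ± 0.32 without it (edgeR, BH adjusted p = 0.603 and 0.749). Each EMdKO mouse lay below each EKO mouse, as in 2.71% of all genes (-0.76 ± 0.57; edgeR, BH adjusted p = 0.836). The interaction was -1.77 ± 0.81 with MKO mouse 3 and -0.33 ± 0.43 without it (edgeR, BH adjusted p = 0.999 in both).

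Mfap5 encodes MAGP-2, a glycoprotein that binds fibrillin. Controls had 51.3, 47.2, 68.7 and 64.9 CPM and MKO mice 85.9, 50.2, 129 and 36.3 CPM. EKO mice had 50.8, 42.7, 38.7 and 31.1 CPM and EMdKO mice 37.9, 20.96, 29.9 and 22.7 CPM. All EMdKO mice lay below all controls, as in 1.45% of all genes, while EKO reached into the control range through mouse 1. Against control the log2 fold change was -0.51 ± 0.31 in EKO, 0.38 ± 0.31 in MKO and -1.06 ± 0.32 in EMdKO (edgeR, BH adjusted p = 0.789, 0.735 and 0.364). The MKO value was -0.02 ± 0.28 without MKO mouse 3.

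Over both LysMCre states, the Krt14-Cre effect on Mfap5 was -0.97 ± 0.22 (edgeR, BH adjusted p = 0.0519). Carriers had a median of 34.5 CPM (20.96 to 50.78, n = 8) and the other mice one of 58.06 CPM (36.27 to 128.7, n = 8). There were 5 other mice above every carrier and 4 carriers below every other mouse. DESeq2 called the difference (-0.97 ± 0.23, BH adjusted p = 0.00235), as did limma-voom (-1.01 ± 0.24, BH adjusted p = 0.0285). In the edgeR fits that left out 1 library the value ran from -1.08 to -0.77. It was called in 3 of those 16, without EKO mouse 1, MKO mouse 4 or control mouse 1 (edgeR, BH adjusted p = 0.0278, 0.0299 and 0.0454). Mfap5 was also at -1.43 ± 0.32 in EMdKO against MKO (edgeR, BH adjusted p = 0.116, and 0.00301 in DESeq2), or -1.04 ± 0.28 without MKO mouse 3. In EKO against MKO it was at -0.88 ± 0.32, or -0.49 ± 0.28 without MKO mouse 3 (edgeR, BH adjusted p = 0.176 and 0.424). The interaction was -0.93 ± 0.44, or -0.54 ± 0.38 without that mouse (edgeR, BH adjusted p = 0.999 in both). Mfap5 lies on chromosome 6, 122513584 to 122529290, plus strand.

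Mfap2 encodes MAGP-1, the other glycoprotein of this pair. It had 70.2 to 174 CPM in control, 84.6 to 128 in EKO, 72.1 to 178 in MKO and 57.7 to 115 in EMdKO skin, and all groups overlapped. The log2 fold change was -0.33 ± 0.30, -0.09 ± 0.30 and -0.56 ± 0.30 in EKO, MKO and EMdKO (edgeR, BH adjusted p = 0.831, 0.948 and 0.663). Mfap2 lies on chromosome 4, 141010424 to 141015976, plus strand.

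Mfap4 encodes a fibrinogen-related protein of the microfibril that binds elastin. Controls had 113, 141, 373 and 101 CPM and MKO mice 89.4, 57.5, 97.6 and 162.5 CPM. EKO mice had 118 to 189 CPM and EMdKO mice 93.8 to 187 CPM. The groups overlapped, and control mouse 3 stood far above all other mice. The log2 fold change in MKO was -0.84 ± 0.39 with that control and -0.22 ± 0.31 without it (edgeR, BH adjusted p = 0.511 and 0.815). Without it the EMdKO value turned from -0.34 ± 0.39 to 0.28 ± 0.31, and the EKO value from -0.21 ± 0.39 to 0.42 ± 0.31. Mfap4 lies on chromosome 11, 61485431 to 61488708, plus strand.

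Fibulin-5, which tethers tropoelastin to microfibrils and cells, and emilin-1, a glycoprotein at the border of core and microfibrils, act in assembly. Fbln5 had 23.5 to 55.3 CPM in control, 31.7 to 43.1 in EKO, 27.0 to 42.1 in MKO and 28.9 to 37.3 in EMdKO skin. Its log2 fold change was 0.16 ± 0.22, -0.07 ± 0.22 and -0.16 ± 0.22 in EKO, MKO and EMdKO (edgeR, BH adjusted p = 0.891, 0.947 and 0.928), and its mean Krt14-Cre effect 0.04 ± 0.16. Emilin1 had 8.34 to 19.7 CPM in control, 10.5 to 15.1 in EKO, 7.98 to 13.5 in MKO and 7.13 to 12.0 in EMdKO skin. Its log2 fold change was 0.04 ± 0.25, -0.21 ± 0.26 and -0.41 ± 0.25 in the same order (edgeR, BH adjusted p = 0.981, 0.82 and 0.745). The groups overlapped for both genes. Fbln5 lies on chromosome 12, 101746565 to 101819119, minus strand, and Emilin1 on chromosome 5, 30913387 to 30921279, plus strand.

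Lox and Loxl1 encode lysyl oxidases, which oxidise lysines so that elastin and collagen chains cross-link, and LOXL1 is known to be needed for elastic fibre upkeep in adult tissue. Loxl1 had 45.8, 71.1, 96.2 and 91.8 CPM in control and 56.0, 54.4, 47.3 and 54.3 CPM in EKO skin. MKO mice had 84.3, 62.7, 58.6 and 64.5 CPM and EMdKO mice 50.6, 51.5, 76.6 and 41.4 CPM. The EKO mice lay close together, above control mouse 1 and below the other controls. They also lay below every MKO mouse, as in 5.16% of all genes. The log2 fold change against control was -0.53 ± 0.22 in EKO, -0.18 ± 0.22 in MKO and -0.47 ± 0.22 in EMdKO (edgeR, BH adjusted p = 0.68, 0.83 and 0.612). The mean Krt14-Cre effect was -0.41 ± 0.16 (edgeR, BH adjusted p = 0.325), and limma-voom called it at -0.50 ± 0.12 (BH adjusted p = 0.0323). With the fibroblast marker score described below as a covariate, Loxl1 was at -0.26 in EKO, -0.26 in EMdKO and -0.23 ± 0.15 for the Krt14-Cre effect (edgeR). Loxl1 lies on chromosome 9, 58287723 to 58313212, minus strand.

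Lox ran from 74.4 to 180.2 CPM among the controls, a range that held every other mouse: 93.7 to 134 CPM in EKO, 105 to 143 in MKO and 102 to 122 in EMdKO. Its log2 fold change was -0.32 ± 0.22, -0.19 ± 0.22 and -0.31 ± 0.22 in EKO, MKO and EMdKO (edgeR, BH adjusted p = 0.798, 0.811 and 0.789). Of the variance of its log2 CPM, 10.3% lay between groups, the lowest share among the members. That share was 58.3% for Mfap5 and 43.6% for Fbn1, with a median of 21.3% over the 10 members and 21.7% over all genes tested. Within groups the members varied somewhat more than other genes, with a median SD of 0.42 beside 0.34 over all genes on the log2 scale.

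**Figure D2:**
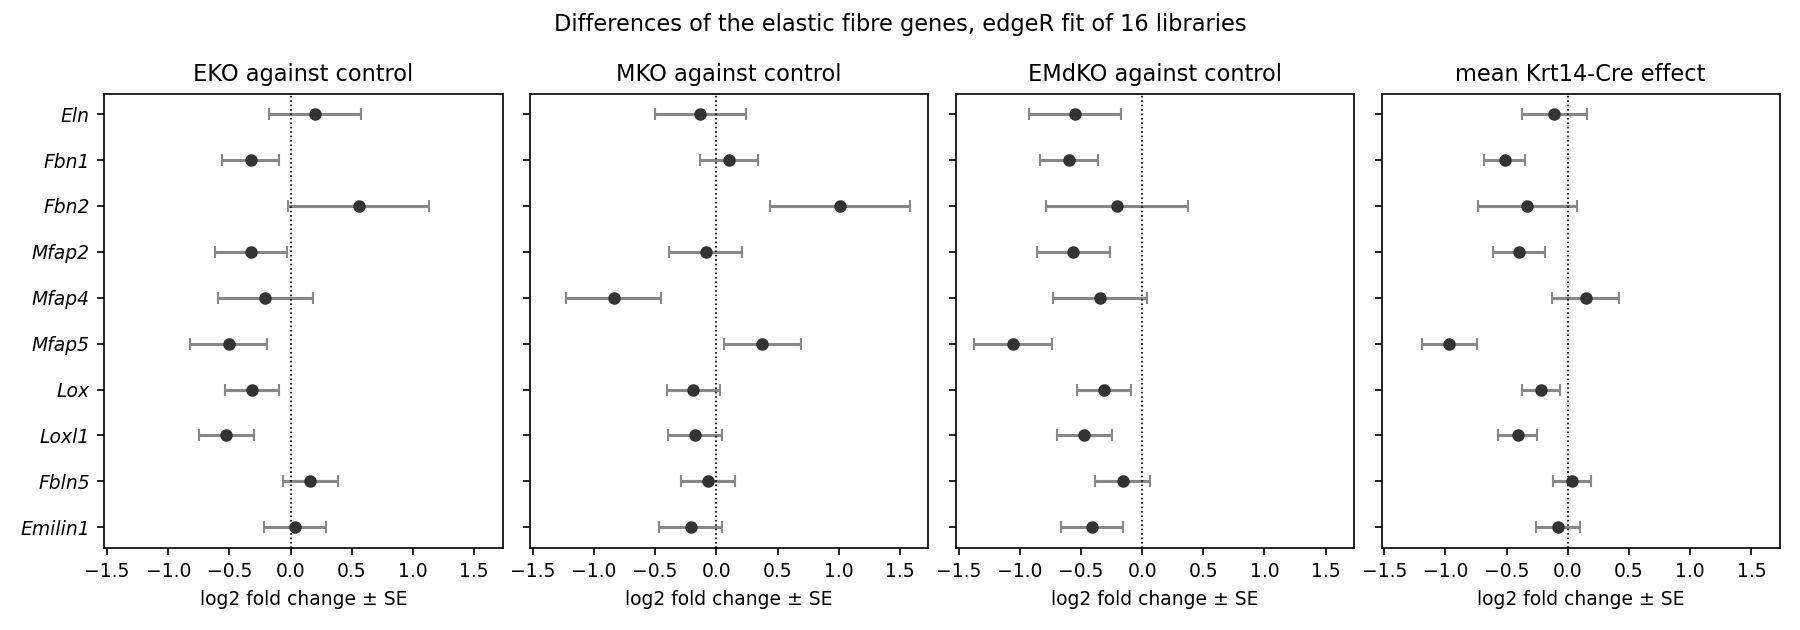
Log2 fold change ± SE (horizontal axis) of each elastic fibre gene in EKO, MKO and EMdKO against control and for the mean Krt14-Cre effect, from the edgeR fit of 16 libraries. All 10 points lie below 0 in EMdKO, and Mfap5 is the lowest there (-1.06) and for the Krt14-Cre effect (-0.97).

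For the mean Krt14-Cre effect 8 of 10 members were negative, with a median of -0.27 beside -0.02 over all genes. edgeR called 0 members, where it called 0.924% of all genes. That share is 126 genes, and edgeR called 356 without EKO mouse 1, 40 without EKO mouse 2 and 3 with the fibroblast score as a covariate, while limma-voom called 588. At an unadjusted p under 0.05, 3 members stood lower (Mfap5, Fbn1 and Loxl1), where 5.35% of all genes did. DESeq2 called 1 of them, Mfap5, and limma-voom all 3. The median was -0.05 with the fibroblast score as a covariate (6 of 10 negative) and -0.17 without MKO mouse 3 (6 of 10). The block by mouse number gave -0.15 (8 of 10).

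For the mean LysM-Cre effect 9 of 10 were negative, with a median of -0.13 beside 0.00 over all genes. No member was called by edgeR, DESeq2 or limma-voom, with 0.044% of all genes called by edgeR (6 genes, or 25 without EKO mouse 1 and 253 in DESeq2), and 0 members had an unadjusted p under 0.05, where 13.1% of all genes did. The farthest members were Mfap4 at -0.49 ± 0.28 and Eln at -0.44 ± 0.27 (edgeR, BH adjusted p = 0.456 and 0.492). Without control mouse 3 these were -0.18 ± 0.21 and -0.20 ± 0.23, and the median over the members was -0.04 (8 of 10 negative). Without MKO mouse 3 the median was -0.26 (10 of 10), and limma-voom gave -0.22 (10 of 10).

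Between knockouts, edgeR called 0 members each time. Over all genes, leaving out EKO mouse 1 moved the edgeR count from 1 to 95 in EMdKO against MKO and from 117 to 510 in EKO against MKO, where 8 were called without MKO mouse 3. In EMdKO against EKO, where 0.0147% of all genes were called, 0 members had an unadjusted p under 0.05 beside 6.59% of all genes, and DESeq2 and limma-voom called 0. In EMdKO against MKO (0.00734% called), 2 members, Fbn1 and Mfap5, stood lower at that level beside 3.15% of all genes. DESeq2 called Mfap5 there and limma-voom 0. In EKO against MKO (0.858% called), Mfap5 stood lower at that level beside 8.19% of all genes, and the other tools called 0. For the interaction 0% of all genes were called, and Fbn2 was the only member under 0.05 unadjusted, beside 1.19% of all genes lower, a value that rests on MKO mouse 3 as given above. DESeq2 and limma-voom called 0 members for it.

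No fibroblast marker was called by edgeR in the comparisons with control or for the mean Krt14-Cre effect. All 9 had negative log2 fold changes in EKO against control (median -0.34), 7 of 9 in EMdKO (median -0.29), 6 of 9 in MKO (median -0.17) and 8 of 9 for the mean Krt14-Cre effect (median -0.23). At an unadjusted p under 0.05, 1 marker stood lower in EKO, where 3.62% of all genes did. EMdKO had 2 such markers (4.65% of all genes), MKO 0 (6.41%) and the mean Krt14-Cre effect 3 (5.35%). Their score, the mean log2 CPM, was 9.03 to 9.94 in control, 9.13 to 9.46 in EKO, 9.27 to 9.77 in MKO and 9.17 to 9.65 in EMdKO mice, so that the groups overlapped and both the lowest and the highest mouse were controls. With this score as a covariate the EMdKO median of the members was -0.23 (9 of 10 negative) and the EKO median 0.16 (4 of 10). Mfap5 then had a Krt14-Cre effect of -0.96 ± 0.25 and Fbn1 one of -0.36 ± 0.17 (edgeR, BH adjusted p = 0.171 and 0.705). In whole skin, fewer cells of a type and less RNA per cell cannot be told apart.

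The 4 smooth muscle markers were Acta2, Myh11, Cnn1 and Des. All were positive in MKO against control (median 0.47), with 3 of 4 in EMdKO (median 0.24) and 1 of 4 in EKO (median -0.14). How much of their RNA came from skeletal muscle was not tested. Their scores were 6.83 to 7.77 in control, 6.92 to 7.82 in EKO, 7.68 to 8.25 in MKO and 7.62 to 7.80 in EMdKO mice. The 8 skeletal muscle markers were also all positive in MKO (median 0.55), with 5 of 8 in EKO (median 0.03) and 3 of 8 in EMdKO (median -0.06). The hair shaft score, which is high in growing follicles, ran from -1.23 to 9.50 in control, 1.05 to 6.85 in EKO, -1.23 to 3.38 in MKO and -1.17 to 6.81 in EMdKO mice. All 9 hair shaft markers were negative against control in EKO (median -1.86), MKO (median -6.85) and EMdKO (median -2.84), and edgeR called 0. At an unadjusted p under 0.05, 1 stood lower in EKO (3.62% of all genes), 8 in MKO (6.41%) and 2 in EMdKO (4.65%). For the mean LysM-Cre effect all 9 were negative (median -3.66), and 8 stood lower at that level, as 1041 of 13633 genes did. With the hair score as a covariate Mfap5 had a Krt14-Cre effect of -0.95 ± 0.23 (edgeR, BH adjusted p = 0.0486). Skeletal muscle scores were 11.3 to 12.4 in control, 11.5 to 12.6 in EKO, 12.0 to 13.5 in MKO and 11.1 to 12.4 in EMdKO mice. Fat scores were 6.11 to 7.30, 5.46 to 6.90, 5.56 to 7.77 and 5.83 to 7.03 in that order. Those of endothelium were 4.73 to 5.18, 4.68 to 5.13, 5.14 to 5.71 and 4.93 to 5.41, of basal keratinocytes 9.86 to 10.6, 9.79 to 10.7, 9.77 to 10.5 and 10.4 to 10.7, and of macrophages 5.45 to 5.92, 5.38 to 5.86, 5.77 to 5.89 and 5.51 to 6.02. All 5 basal keratinocyte markers were positive in EMdKO against control (median 0.39) and for the mean Krt14-Cre effect (median 0.11). In EKO and in MKO 3 of 5 were positive (median 0.10 and 0.14), and edgeR called 0 of them in each. The highest of these markers was at 1.07 in EKO and 0.91 for the mean Krt14-Cre effect. At an unadjusted p under 0.05, 1 basal keratinocyte marker stood higher in EKO, where 447 of 13633 genes did. For the mean Krt14-Cre effect 1 did, beside 766 of all genes. All 6 fat markers were negative in EKO (median -0.66), in MKO (median -0.14) and for the mean Krt14-Cre effect (median -0.29). In EMdKO 5 of 6 were negative (median -0.18). In each of these comparisons 0 fat markers had an unadjusted p under 0.05. The part of basal keratinocytes, smooth muscle, fat, endothelium and macrophages in the differences was not tested.

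**Figure D3:**
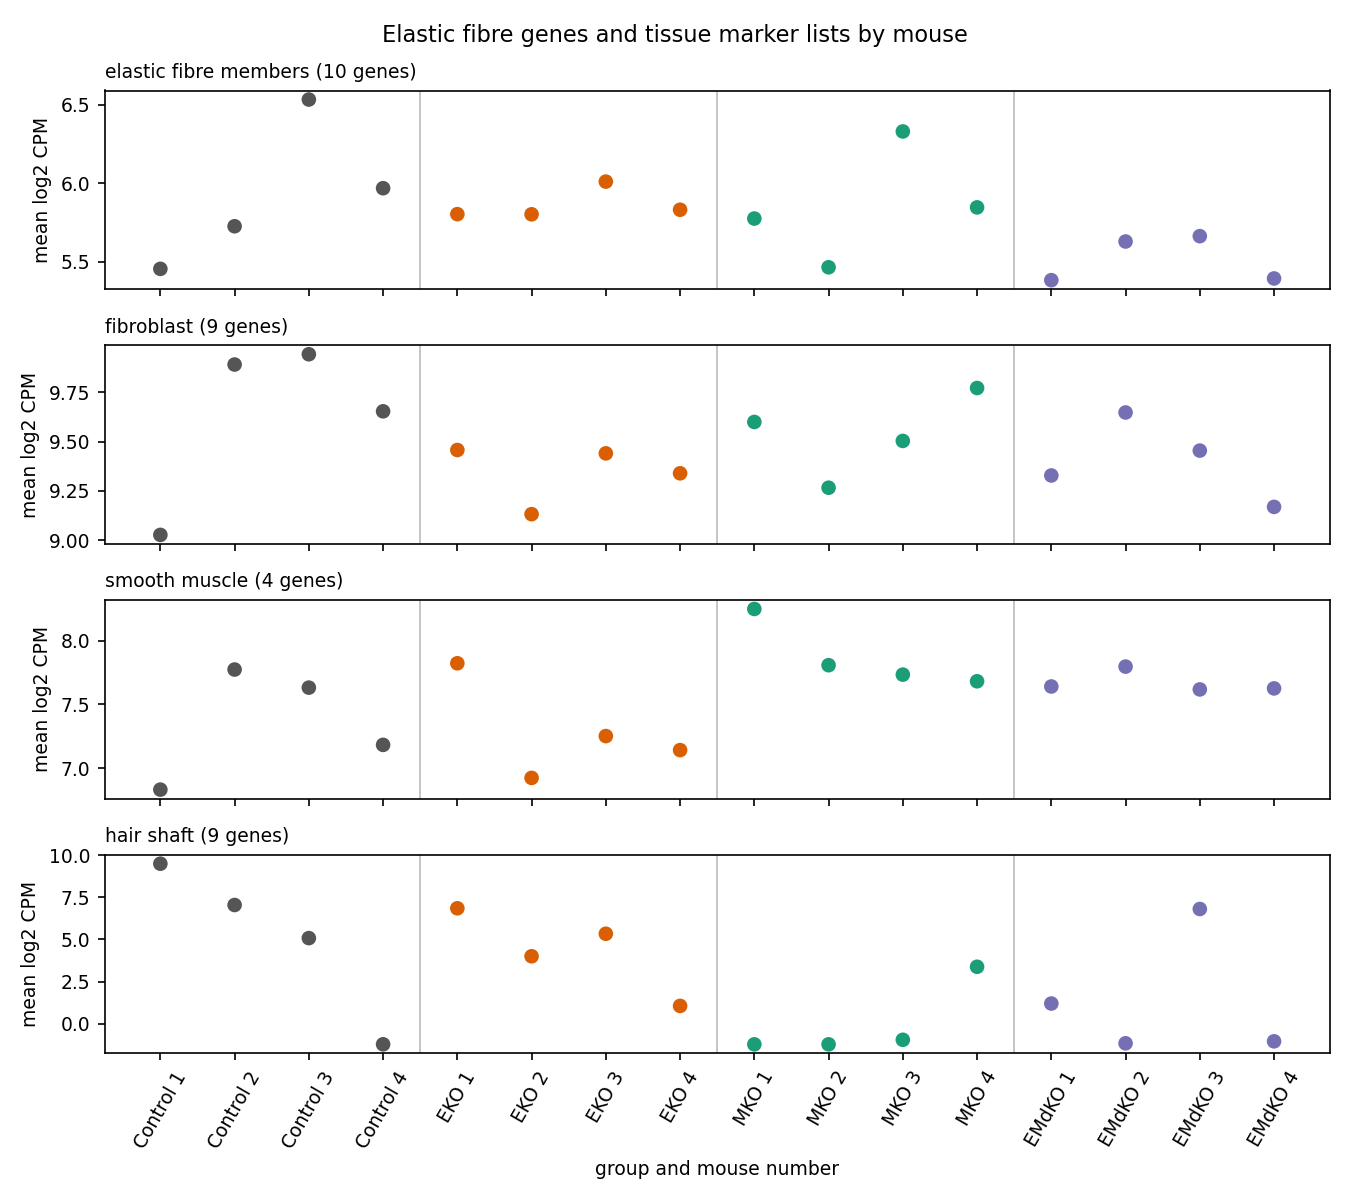
Mean log2 CPM (vertical axes, which differ and do not start at 0) of the 10 elastic fibre genes and of the fibroblast, smooth muscle and hair shaft markers in each of 16 mice. For the elastic fibre genes control mouse 3 is highest (6.53), and the EMdKO mice lie between 5.38 and 5.66, next to the lowest control (5.46).

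Over the 16 libraries, which share tissue makeup and scaling, 42 of 45 pairs of members had a positive Pearson r of log2 CPM, with a median of 0.37. The highest were Lox with Loxl1 (0.702), Eln with Fbn2 (0.695) and Fbn1 with Mfap5 (0.691). The lowest was Mfap4 with Mfap5 (-0.23). With the group means taken out, r was 0.67 for Lox with Loxl1, 0.66 for Eln with Fbn2 and 0.39 for Fbn1 with Mfap5. Mfap2 and Mfap5, which encode the MAGP pair, had an r of 0.34, or 0.04 within groups. The share of positive pairs among other genes was not counted. Control mouse 3 held the highest value of 5 members and MKO mouse 3 that of 3, and r without these mice was not computed.

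**Figure D4:**
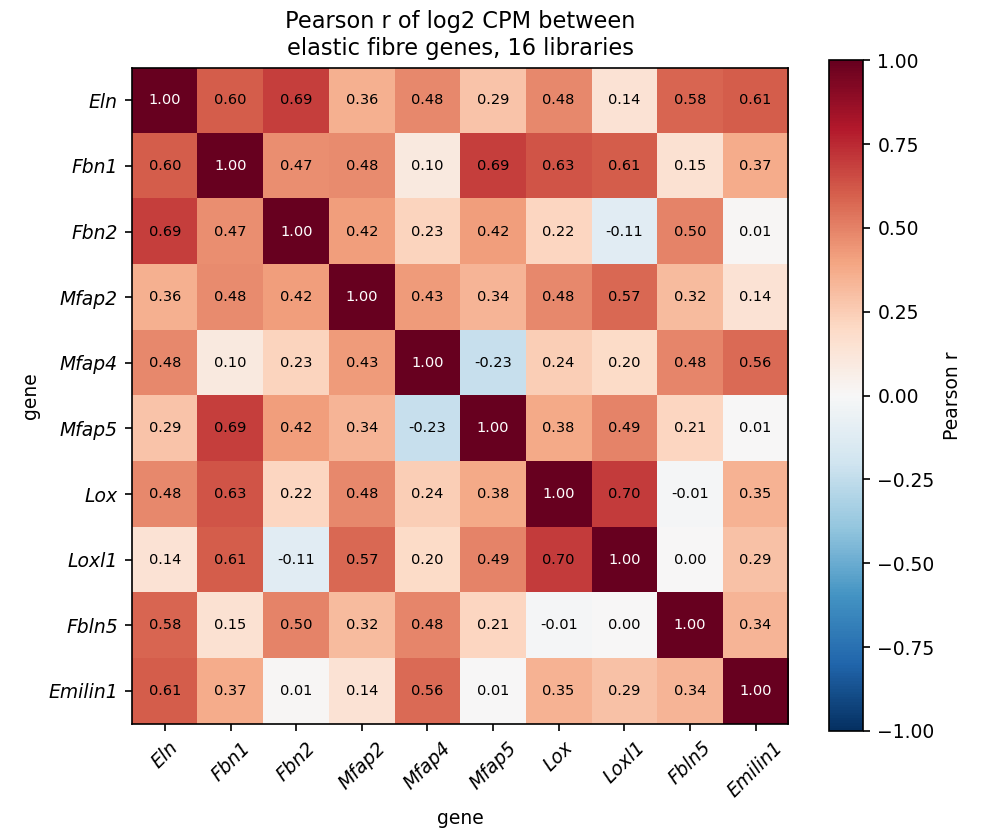
Pearson r of log2 CPM over 16 libraries for each pair of the 10 elastic fibre genes (rows and columns), on a colour scale from -1 (blue) to 1 (red). Lox with Loxl1 is the highest pair (0.702) and Mfap4 with Mfap5 the lowest (-0.23).

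Outside the members, the genes most like Eln by Pearson r over the 16 libraries, of 13632 ranked, were Dusp12 (0.86), Csf1r (0.80), Oaf (0.785), Pam (0.78) and C1qtnf2 (0.77). Fbn2 ranked 25 (0.695), Emilin1 104 (0.61), Fbn1 110 (0.60), Fbln5 143 (0.58), Lox 481 (0.48) and Mfap4 494 (0.48). Mfap2 ranked 1457 (0.36), Mfap5 2277 (0.29) and Loxl1 4509 (0.14).

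A wider list held 52 other gene names of elastic fibre assembly, TGF-beta binding, cross-linking and breakdown, of which 45 were tested. Adamtsl6, for which no target was found, is a further name of Thsd4, which was tested. In EKO against control 38 of 45 were negative (median -0.27), in MKO 26 (median -0.06) and in EMdKO 38 (median -0.19), and edgeR called 0 in each. At an unadjusted p under 0.05, 5 of them stood lower in EKO, where 3.62% of all genes did. There were 2 in MKO (6.41% of all genes) and 9 in EMdKO (4.65%). DESeq2 called 3 in EMdKO, where it called 71 of all genes, and 0 in the single knockouts. limma-voom called 0 in all 3.

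In EMdKO 4 of these 45 genes lay below every control, as 1.45% of all genes did: Adamtsl1, Emilin2, Efemp2 and Fbln2, the last named after its values were seen. Adamtsl1, a secreted ADAMTS-like matrix protein gene, had 30.7 ± 5.30 CPM against 51.1 ± 8.31 in control (SD, n = 4 each). Emilin2, an emilin family gene, had 28.0 ± 2.77 against 46.7 ± 5.89 CPM. Efemp2, which encodes fibulin-4, a protein that brings lysyl oxidase to elastin, had 12.3 ± 1.92 against 19.4 ± 3.25 CPM. The log2 fold changes were -0.73 ± 0.16, -0.74 ± 0.17 and -0.66 ± 0.19 (edgeR, BH adjusted p = 0.211, 0.236 and 0.358). Vcan, which encodes the proteoglycan versican, had 28.1 ± 8.63 against 83.7 ± 56.1 CPM (-1.58 ± 0.39; edgeR, BH adjusted p = 0.33). Control mouse 2 had 162.5 CPM of Vcan, and without it the difference was -1.03 ± 0.33 (edgeR, BH adjusted p = 0.56). Fitted alongside the hair shaft score it was -1.001 ± 0.34 (edgeR).

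Vcan also had the smallest p in MKO, at -1.28 ± 0.39 (edgeR, BH adjusted p = 0.331). It was -0.73 ± 0.33 without control mouse 2 (edgeR, BH adjusted p = 0.488) and -0.45 with the hair shaft score. Control mouse 4 had 29.6 CPM, below every MKO mouse (30.5 to 40.8 CPM). The protease inhibitor gene Timp1 was at -2.23 ± 0.72 (edgeR, BH adjusted p = 0.334), with 4 to 12 counts per MKO mouse. Control mouse 2 had 83 counts of Timp1 and the other controls 9 to 25. Without that mouse the difference was -1.12 ± 0.61 (edgeR, BH adjusted p = 0.588), and with the hair shaft score it was -1.23. The protease gene Ctsl was at -0.42 ± 0.20 and the fibronectin gene Fn1 at 0.81 ± 0.39 (edgeR, BH adjusted p = 0.523 and 0.529), where MKO mouse 3 had 2032 CPM of Fn1 and the other MKO mice 504 to 694.3. Without that mouse Fn1 was at 0.11 ± 0.28 (edgeR, BH adjusted p = 0.942). Ctsl was at -0.20 without control mouse 1 and -0.09 with the hair shaft score. In EKO the smallest p belonged to Adamtsl1 (-0.52 ± 0.15), the membrane protease gene Mmp14 (-0.61 ± 0.25), Emilin2 (-0.40 ± 0.17) and the protease inhibitor gene Timp3 (-0.52 ± 0.22), with edgeR BH adjusted p = 0.462, 0.68, 0.68 and 0.691. With the fibroblast score as a covariate Mmp14 was at -0.26 ± 0.20 (edgeR).

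For the mean Krt14-Cre effect 37 of 45 were negative (median -0.25), and Adamtsl1 was the only gene of either list that edgeR called, where 0.147% of all genes were called lower. Adamtsl1 had 38.8, 56.4, 55.7 and 53.6 CPM in control and 44.5, 44.4, 38.9 and 50.45 CPM in MKO skin. EKO skin had 32.7, 37.8, 34.2 and 37.6 CPM and EMdKO skin 38.5, 27.1, 29.8 and 27.4 CPM, so each mouse with Krt14Cre lay below each mouse without it. The gap was narrow, between EMdKO mouse 1 at 38.45 CPM and control mouse 1 at 38.77 CPM. The share of all genes that separate in this way was not counted. The separation rests on the same values as the edgeR call that singled the gene out, so it adds no support. Adamtsl1 fell by 0.53 ± 0.11 on the log2 scale (edgeR, BH adjusted p = 0.0309). The call was lost in 13 of 16 edgeR fits that left out 1 library, and held without EKO mouse 1, EMdKO mouse 1 or control mouse 1 (BH adjusted p from 0.0131 to 0.0837 over all 16). The fold change ran from -0.59 to -0.50 over the 16 fits. It was also lost with the fibroblast score as a covariate, at -0.45 ± 0.12 (edgeR, BH adjusted p = 0.17). DESeq2 (BH adjusted p = 0.000726) and limma-voom (0.0124) made the call.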

How the data were processed

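Whole-skin RNA of 16 mice was read with an amplicon panel of the mouse transcriptome (Ion AmpliSeq), per the labels' protocols. The authors deposited raw read counts per RefSeq target for each mouse. HTSeq 0.6.0 and DESeq2 1.18.1 are named in the submitters' processing notes, while the aligner and build are not given in the sources used here. Symbols were found for 22562 of 23930 targets from RefSeq and GENCODE tables. Summary lines that name no gene held 3.11% to 5.25% of a file and were left out. Libraries held 6962474 to 12086327 counts, which leaves few counts for Fbn2 and Emilin1.

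Low targets were removed with filterByExpr, and edgeR 4.0.16 (R 4.3.3) fitted all 16 libraries by group with TMM scaling and quasi-likelihood tests (12 residual degrees of freedom). p-values were adjusted over 13633 genes by Benjamini and Hochberg. The scripts were tested on simulated data. The alternatives were RLE and upper quartile scaling, DESeq2 1.42.0, limma-voom (limma 3.58.1) with sample weights, no filter, a stricter filter (CPM of 1 in 4 libraries), a fit of the compared groups alone, mouse number as a block, hair shaft, fibroblast or skeletal muscle score as a covariate, and each library left out. No 2 libraries were copies of each other.

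The members and lists were chosen with earlier results of these data known. All members are named, with each gene of the wider list called by edgeR in a comparison, the 4 of it with the smallest p in each knockout against control, and the 5 genes most like Eln.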

Additional observations from a re-analysis of the deposited data

Results flagged for a closer look

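Each member was checked in each group of 4 mice, 40 groups in all, for a mouse far from the other 3, by Dixon's test of its gap to the nearest mouse over the group's range, on the CPM scale. Chance alone marks about 1 in 20 such groups, and 3 were marked. Fbn2 in MKO mouse 3 had 27.53 CPM, where the other MKO mice had 2.148 to 5.27 CPM (gap over range 0.877). Mfap4 in control mouse 3 had 373 CPM, where the other controls had 101.3 to 140.8 CPM (0.855). Fbln5 in EMdKO mouse 3 had 37.3 CPM, where the other EMdKO mice had 28.92 to 30.35 CPM (0.83).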

How the results depend on the processing

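The members called did not change from 0 in any of the 3 comparisons with control, in EMdKO against EKO, in EKO against MKO, for the mean LysM-Cre effect or for the interaction. In EMdKO against MKO DESeq2 called 1. For the mean Krt14-Cre effect DESeq2 called 1, limma-voom 3, and edgeR 1 with no filter, 1 with the replicate block, 1 with the hair score and 0 to 1 with a library left out. Of the other elastic fibre genes DESeq2 called 3 in EMdKO against control, 2 in EMdKO against MKO, 2 in EKO against MKO, 3 for Krt14-Cre and 2 for LysM-Cre. limma-voom called 8 in EKO against MKO, 6 for Krt14-Cre and 2 for LysM-Cre. edgeR called 0 for Krt14-Cre with no filter, 0 with the replicate block, 0 with the fibroblast score and 0 with the muscle score. With a library left out it called 0 to 1 for Krt14-Cre and 0 to 1 for LysM-Cre. Over all genes DESeq2 called 71 in EMdKO against control and 253 for LysM-Cre, and limma-voom called 588 for Krt14-Cre. The highest count over all genes in any setting was 143 in EMdKO against MKO and 1591 in EKO against MKO. For the remaining counts of listed genes, the share of all genes called by the same tool is not given here.

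With the replicate block Mfap5 was at -0.94 for Krt14-Cre (edgeR, BH adjusted p = 0.0381) and Adamtsl1, still at -0.53, lost its call (edgeR, BH adjusted p = 0.0766). The labels do not say whether a number pairs mice across groups. Same-numbered libraries had deviations with a median r of -0.106 over 24 pairs (-0.543 to 0.61). Libraries of different number had one of 0.013 over 72 pairs (-0.717 to 0.574). Of 16 libraries, 5 matched best with their own number. Such values cannot decide whether same-numbered mice shared a litter or batch.

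Differences that changed sign were not called on either side, and the cause was not tested. With limma-voom they were Emilin1 in EKO (-0.15) and for the interaction (0.008), Fbn1 in MKO (-0.027), Loxl1 in EMdKO against EKO (-0.047), Fbln5 for Krt14-Cre (-0.11) and Fbn2 for LysM-Cre (-0.089). With the fibroblast score they were Mfap2 (0.12) and Mfap4 (0.34) in EKO, Mfap2 in MKO (0.092), Mfap4 in EMdKO (0.059), Lox (-0.022) and Loxl1 (-0.004) in EMdKO against EKO, Mfap2 (0.032) and Lox (0.019) in EKO against MKO, and Eln (0.086) and Emilin1 (0.041) for Krt14-Cre. With the hair score they were Fbn1 (-0.14), Mfap2 (0.014) and Fbln5 (0.14) in MKO, Lox in EMdKO against EKO (-0.11) and in EKO against MKO (0.063), and Fbn2 for LysM-Cre (-0.033). With the muscle score they were Fbln5 in MKO (0.026) and for Krt14-Cre (-0.017) and Lox in EMdKO against MKO (0.006). The replicate block turned Fbn2 for LysM-Cre (-0.026). Lox in EMdKO against EKO was -0.002 with RLE, -0.015 with upper quartile scaling, -0.001 with DESeq2, -0.002 with no filter and 0.000 with the stricter filter.

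With 1 library left out, signs turned over these ranges. In EKO against control Mfap4 ran from -0.41 to 0.42 and Emilin1 from -0.11 to 0.35. In MKO Eln ran from -0.50 to 0.34, Fbn1 from -0.10 to 0.22, Fbn2 from -0.43 to 1.34, Mfap2 from -0.31 to 0.11, Mfap5 from -0.02 to 0.61, Fbln5 from -0.22 to 0.24 and Emilin1 from -0.36 to 0.10. In EMdKO Mfap4 ran from -0.54 to 0.28 and Fbln5 from -0.31 to 0.15. In EMdKO against EKO Mfap4 ran from -0.29 to 0.021, Lox from -0.074 to 0.10 and Loxl1 from -0.15 to 0.17. In EMdKO against MKO Fbn2 ran from -1.55 to 0.22 and Fbln5 from -0.18 to 0.036, and in EKO against MKO Fbn2 ran from -0.79 to 0.98. For Krt14-Cre Eln ran from -0.21 to 0.13, Fbn2 from -0.50 to 0.39, Fbln5 from -0.041 to 0.19 and Emilin1 from -0.15 to 0.075. For LysM-Cre Fbn2 ran from -0.59 to 0.29, Mfap5 from -0.28 to 0.027 and Loxl1 from -0.16 to 0.005. For the interaction Mfap2 ran from -0.35 to 0.077. The fit of the compared groups alone equals the full fit for the mean effects and the interaction and gave no further value. Depth limits Fbn2 most, which had as few as 17 counts.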
